A study of Rattus norvegicus with 6 samples.

Results

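The genes described here encode NRF2, its inhibitor KEAP1 and the antioxidant and glutathione enzymes around them: 37 genes were chosen by name, and 36 of them had a row of that name among the 30957 genes of the deposited table. Pgd, a pentose phosphate enzyme, was the 1 without such a row, so its level is not given. RNA was sequenced from BRL-3A, a long-cultured cell line from rat liver. In 3 libraries, labelled si-hnrnpa2b1, the cells were transfected by lipid reagent with siRNA against Hnrnpa2b1 and harvested after 48 h. They were set against 3 libraries labelled NC, a name that the labels do not spell out; the same account of transfection and 48 h stands beside all 6 libraries, without saying which siRNA, if any, the NC cells received. All 6 libraries carry the same further labels, namely the strain Sprague-Dawley, liver as the tissue and a disorder of raised blood triglycerides as the disease state; the line itself is known as one from a Buffalo rat. The labels do not say whether replicates were separate cultures. Each p-value here therefore rests on a spread among libraries that may be technical.

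NRF2, encoded by Nfe2l2, is a transcription factor that binds antioxidant response elements together with small MAF proteins such as MAFG. KEAP1 holds it in the cytoplasm and sends it to the proteasome, and oxidants or electrophiles that modify KEAP1 release it, so that its activity is set mostly at the protein level. Its targets make and recycle glutathione and thioredoxin, supply NADPH, break down haem, store iron and conjugate foreign compounds, tasks for which the liver is known. Superoxide dismutases, catalase, peroxiredoxins and glutathione peroxidases remove the oxidants themselves, and several of them are controlled by factors other than NRF2.

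The libraries held 13374412 to 15224108 counts. Hnrnpa2b1 itself had 662, 585 and 574 CPM in the si-hnrnpa2b1 libraries, against 954, 1065 and 1025 CPM in the NC libraries, a fall of 40.2% on the fitted scale (edgeR adjusted p = 2.3e-06). CPM here are counts scaled to a common library total after correction by the trimmed mean of M-values (TMM). Of 10 hepatocyte markers 5 had 0 counts, Alb, Ttr, Apob, Serpina1 and Hnf4a. Only Tf reached a mean of 1 FPKM (fragments per kilobase at a common library total, the authors' values). Most markers that define hepatocytes thus had 0 or few counts. Of 8 markers of stellate cells or fibroblasts 6 reached a mean of 1 FPKM. The summed levels of the 8 were 3290 to 3450 FPKM in si-hnrnpa2b1 and 3240 to 3360 FPKM in NC libraries. Col1a2 and Lrat had 0 counts, and whether a count of 0 means absence of the transcript was not tested. On the second principal component of log2 CPM, si-hnrnpa2b1 replicate 1 and NC replicate 2 lay apart (12.7 and 14.7) from the remaining libraries (-13.0 to -1.74).

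Most of the antioxidant genes did not pass the test after si-hnrnpa2b1, and the 5 that did moved in both directions. All 36 genes found passed the filter on low counts. Txn1, Txnrd1 and Sod3 rose, Sod2 and Prdx6 fell, and 31 did not pass, where rising, falling or changing means an adjusted p below 0.05 by the quasi-likelihood test of edgeR, adjusted over 12261 genes by the method of Benjamini and Hochberg. That is 13.9% of the 36 genes, beside 5.30% of all tested genes, of which 2.36% rose and 2.94% fell. The 2 shares were not tested against each other or matched for expression level. The genes were chosen with earlier results of these data known, and the part of that choice in the share was not tested. An unadjusted p below 0.05 was found for 8 of the 36, beside 18.3% of all tested genes. No member changed as much as 1.5-fold at its estimate: log2 fold changes of si-hnrnpa2b1 over NC ran from -0.42 to 0.46. Their median was -0.025 (17 above 0 and 19 below), against -0.002 over all tested genes, and the median size of change was 0.073, against 0.102. In 28 of the 31 genes that did not pass, the 95% interval of the fold change lay within 1.5-fold in either direction; the exceptions were Txnrd2, Srxn1 and Gsta1, each with fewer than 10 CPM. The groups did not overlap in 12 of the 36 genes (33.3%), 5 higher and 7 lower in si-hnrnpa2b1 libraries, against 23.4% of all tested genes, 11.5% higher and 11.9% lower. Of all genes each fit tested, 5.40% were called by DESeq2, 2.91% and 2.88% by limma on log2 FPKM with pseudocounts of 1 and 0.1. Without si-hnrnpa2b1 replicate 1, 2 or 3 the share was 3.14%, 3.07% or 3.06%, and without NC replicate 1, 2 or 3 it was 3.56%, 4.77% or 4.32%.

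**Figure D1:**
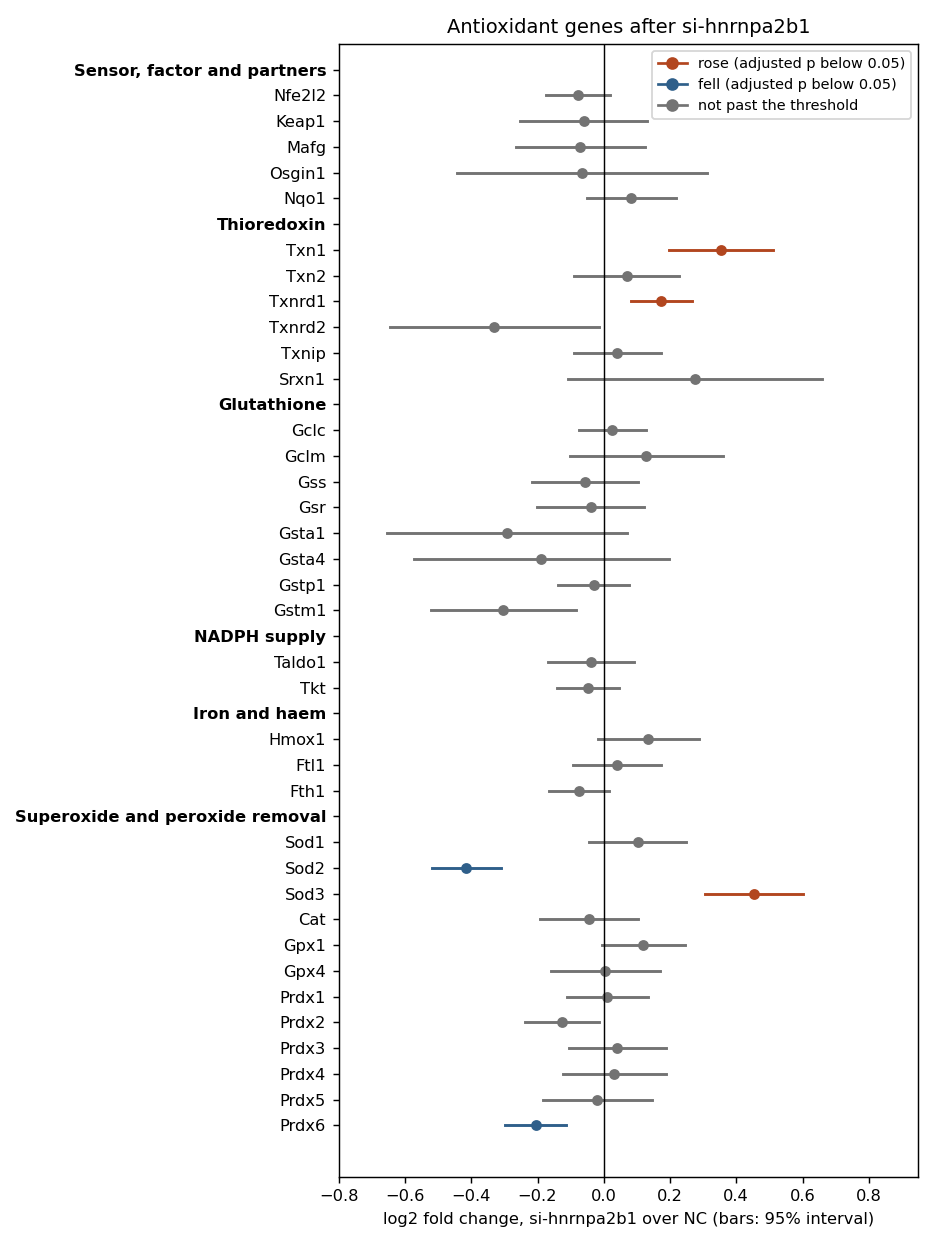
Log2 fold change of si-hnrnpa2b1 over NC (x axis) for the 36 genes found, grouped by role; points are edgeR estimates from 3 libraries per group and bars their 95% intervals. Txn1, Txnrd1 and Sod3 lie right of 0 and Sod2 and Prdx6 left of it, while most of the others cross 0.

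The cytosolic thioredoxin pair rose. Txn1, thioredoxin, which reduces disulfides in the cytosol and nucleus (ENSRNOG00000012081, chromosome 5, 75049747 to 75057752 of Rnor_6.0), had 49.3, 48.0 and 47.5 CPM in the si-hnrnpa2b1 libraries, against 36.3, 35.3 and 41.5 CPM in the NC libraries. All si-hnrnpa2b1 values lay above all NC values, and the means were 48.3 ± 0.949 and 37.7 ± 3.31 CPM (SD, n = 3 each). The log2 fold change was 0.35 ± 0.07 (SE), with an edgeR adjusted p of 0.0093. Txnrd1, the cytosolic reductase that recharges thioredoxin with NADPH (ENSRNOG00000009088, chromosome 7, 26946125 to 26984400), had 306, 311 and 308 CPM in si-hnrnpa2b1, against 265, 285 and 269.9 CPM in NC libraries. The groups did not overlap, but the step was small: 12.8%, or 0.17 ± 0.04 in log2 (edgeR adjusted p = 0.029). The Txnrd1 call was lost when any 1 library except NC replicate 2 was left out (adjusted p = 0.065 to 0.13) and by limma on FPKM (0.068 and 0.071); over all alternatives its adjusted p ran from 0.0074 to 0.13.

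The mitochondrial counterparts of both enzymes did not pass. Txn2, mitochondrial thioredoxin, had 34.4 ± 1.89 CPM in si-hnrnpa2b1 and 32.8 ± 0.642 CPM in NC libraries (log2 0.07 ± 0.07, edgeR adjusted p = 0.69). Txnrd2, its reductase, had 6.11, 7.53 and 5.77 CPM in si-hnrnpa2b1, against 8.26, 8.40 and 7.75 CPM in NC libraries, without overlap (log2 -0.33 ± 0.15, edgeR adjusted p = 0.25). Per gene length, Txn1 stood at 6.31, 6.06 and 5.50 times the FPKM of Txn2 in si-hnrnpa2b1, against 4.59, 4.58 and 5.46 times in NC libraries; these ratios were formed after the values were seen and were not tested.

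The remaining thioredoxin genes overlapped between groups. Txnip, which binds and inhibits thioredoxin and follows glucose supply, had 211, 217 and 203 CPM in si-hnrnpa2b1, against 207, 224 and 182 CPM in NC libraries (edgeR adjusted p = 0.81). Srxn1, sulfiredoxin, which repairs overoxidised peroxiredoxins and is a textbook NRF2 target, had 5.62 ± 0.777 and 4.64 ± 0.697 CPM (log2 0.27 ± 0.18, 95% interval -0.11 to 0.66, edgeR adjusted p = 0.46). Without single libraries its log2 fold change ran from 0.16 (without si-hnrnpa2b1 replicate 3) to 0.41 (without NC replicate 1). At this level the interval leaves room for a rise of more than 1.5-fold.

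Of the superoxide dismutases, which turn superoxide into hydrogen peroxide, the mitochondrial one fell, the extracellular one rose and the cytosolic one did not pass. Sod2, the manganese enzyme of mitochondria (ENSRNOG00000019048, chromosome 1, 47914759 to 47921587), had 353, 343 and 357 CPM in si-hnrnpa2b1, against 467, 500.0 and 439 CPM in NC libraries. It fell by 25.0% (log2 -0.42 ± 0.05, edgeR adjusted p = 0.0001), and the lowest NC library lay well above the highest si-hnrnpa2b1 library. Sod3, the secreted enzyme that binds to the matrix (ENSRNOG00000003869, chromosome 14, 60958592 to 60964324), had 226, 193 and 199 CPM in si-hnrnpa2b1, against 139, 167 and 146 CPM in NC libraries. It rose by 37.1% (log2 0.46 ± 0.07, edgeR adjusted p = 0.00091), again without overlap. Of the 6 detected markers of stellate cells or fibroblasts, Acta2 (123 FPKM in si-hnrnpa2b1 and 102 FPKM in NC libraries) and Des (33.1 and 26.9 FPKM) rose as well. The other 4 did not pass, at 2010 and 2020 FPKM for Col1a1, 422 and 433 FPKM for Col3a1, 3.55 and 3.55 FPKM for Pdgfrb and 772 and 705 FPKM for Vim. Any link between these markers and Sod3 was not tested. Sod1, the cytosolic copper and zinc enzyme, had 82.5, 87.8 and 89.6 CPM in si-hnrnpa2b1, against 85.9, 71.9 and 84.3 CPM in NC libraries (log2 0.10 ± 0.07, edgeR adjusted p = 0.48), with overlap. Without NC replicate 2, the lowest, the log2 fold change was 0.03 (adjusted p = 0.88), within a range of 0.03 to 0.15 when single libraries were left out.

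The summed level of the 3 dismutases was slightly lower in si-hnrnpa2b1 libraries, without overlap, and its make-up differed more. Summed, Sod1, Sod2 and Sod3 had 424, 413 and 426 FPKM in si-hnrnpa2b1, against 441, 443 and 428 FPKM in NC libraries. Sod2 held 40.02%, 40.37% and 40.75% of that sum in si-hnrnpa2b1, against 51.71%, 54.05% and 49.97% in NC libraries. The share of Sod3 was 30.6%, 27.2% and 27.1% in si-hnrnpa2b1, against 18.4%, 21.5% and 19.8% in NC libraries. Neither share overlapped between groups; the shares were formed after the values were seen and have no test of their own.

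**Figure D2:**
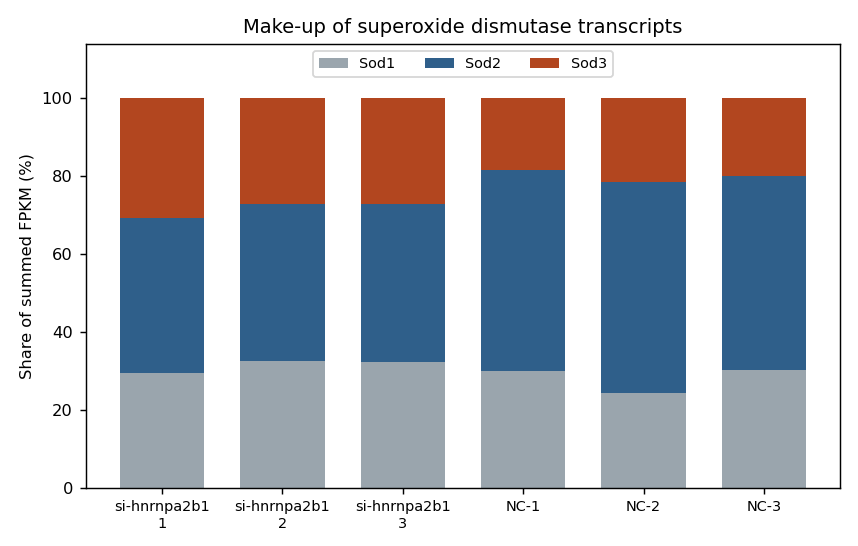
Share of the summed FPKM of Sod1, Sod2 and Sod3 (y axis, percent) held by each gene in each of the 6 libraries (x axis). The Sod2 segment is 40.02% to 40.75% in the si-hnrnpa2b1 libraries and 49.97% to 54.05% in the NC libraries, and the Sod3 segment is larger in every si-hnrnpa2b1 library than in any NC library.

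Among the enzymes that remove peroxides, Prdx6 was the 1 that passed. Prdx6, a peroxiredoxin that uses glutathione and also reduces phospholipid peroxides (ENSRNOG00000002896, chromosome 13, 79077033 to 79088127), had 368, 369 and 374 CPM in si-hnrnpa2b1, against 429, 442 and 409.7 CPM in NC libraries. The groups did not overlap, and the gene fell by 13.3% (log2 -0.21 ± 0.04, edgeR adjusted p = 0.0097). Without si-hnrnpa2b1 replicate 2 its adjusted p was 0.054, within a range of 0.0011 to 0.054 over all alternatives. Prdx2, a cytosolic peroxiredoxin recharged by thioredoxin, had 110.3, 115 and 119 CPM in si-hnrnpa2b1, against 128, 121 and 127 CPM in NC libraries, without overlap, but did not pass (log2 -0.13 ± 0.05, edgeR adjusted p = 0.20). Prdx1 of the cytosol and Prdx3 of mitochondria gave log2 fold changes of 0.01 and 0.04. Prdx4 of the endoplasmic reticulum gave 0.03 and Prdx5, found in mitochondria, peroxisomes and cytosol, gave -0.02; the adjusted p of these 4 ran from 0.83 to 0.96, and all 4 overlapped between groups.

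The glutathione peroxidases and catalase did not pass. Gpx1, which reduces hydrogen peroxide with glutathione, had 77.7, 76.9 and 77.4 CPM in si-hnrnpa2b1, against 70.6, 75.0 and 68.2 CPM in NC libraries. Its groups did not overlap, with a log2 change of 0.12 ± 0.06 (95% interval -0.006 to 0.24, edgeR adjusted p = 0.30). Gpx4, which protects membranes from lipid peroxides, had 77.4 ± 1.73 and 77.1 ± 9.83 CPM (edgeR adjusted p = 0.98); its model overlaps that of Sbno2, with 12241 counts against 6718. Cat, the catalase of peroxisomes, had 65.7 ± 2.88 and 67.8 ± 5.87 CPM (edgeR adjusted p = 0.80).

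**Figure D3:**
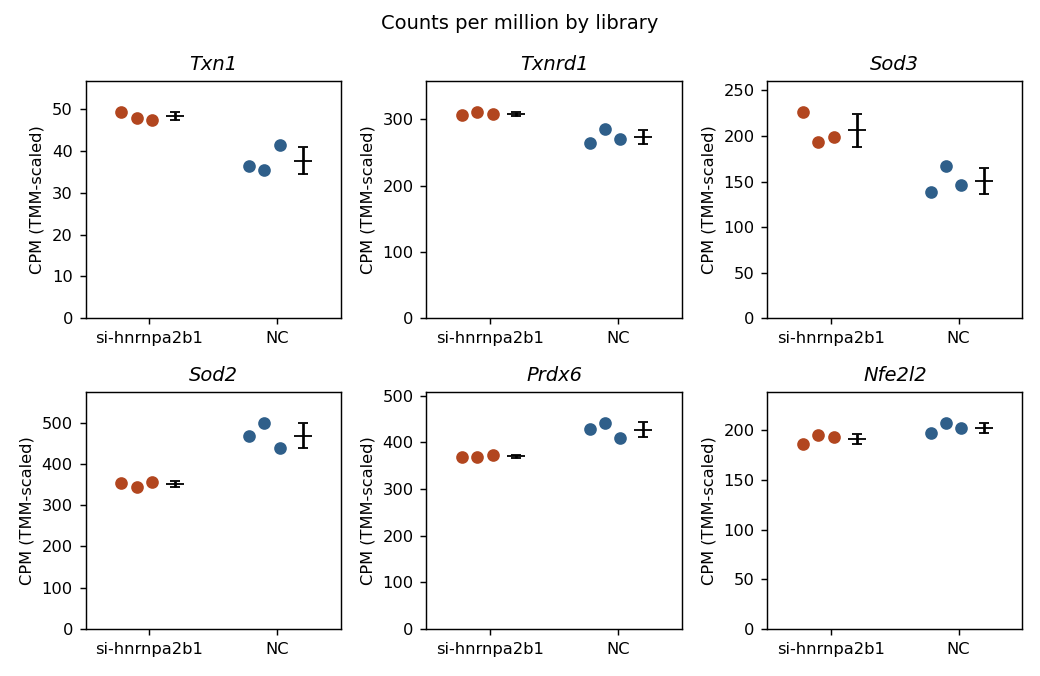
TMM-scaled CPM (y axis, from 0) in each library of the 5 genes that passed the test and of Nfe2l2; coloured points are single libraries and black marks show mean ± SD of 3. The groups separate in all 6 panels, with the widest gap relative to the spread for Sod2 and the smallest step for Nfe2l2, which did not pass.

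None of the 8 glutathione genes passed by edgeR or by DESeq2, beside 5.30% and 5.40% of all tested genes. Only Gstm1 had an unadjusted p below 0.05 by edgeR, beside 18.3% of all tested genes. A set this small cannot show a lower share. Gclc, the catalytic subunit of the enzyme that sets the rate of glutathione synthesis, had 163, 159 and 158 CPM in si-hnrnpa2b1, against 158, 151 and 162 CPM in NC libraries (log2 0.03 ± 0.05, edgeR adjusted p = 0.84). Gclm, its modifier subunit, had 15.7 ± 1.05 and 14.3 ± 1.01 CPM (edgeR adjusted p = 0.59). Gss, which completes glutathione, and Gsr, which reduces it again with NADPH, gave log2 fold changes of -0.06 and -0.04, with overlap. Of the 4 transferases among the members, which join glutathione to electrophiles, Gstp1 had the highest level per gene length and 161, 151 and 153 CPM in si-hnrnpa2b1, against 165, 151 and 159 CPM in NC libraries (edgeR adjusted p = 0.82). Gstm1 had 41.9, 30.4 and 34.3 CPM in si-hnrnpa2b1, against 43.1, 48.2 and 40.3 CPM in NC libraries, where si-hnrnpa2b1 replicate 1 fell inside the NC range (log2 -0.30 ± 0.10, edgeR adjusted p = 0.11). Without that library it passed at -0.44 (adjusted p = 0.021, within 0.021 to 0.36 over all alternatives). Gsta1 and Gsta4 were low, at 6.28 ± 1.45 and 4.49 ± 0.108 CPM in si-hnrnpa2b1 and 7.69 ± 0.168 and 5.12 ± 0.894 CPM in NC libraries; no source used here says how reads shared among glutathione transferase paralogs were counted, so the level of each is uncertain.

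The NADPH, iron and haem genes also stayed below the threshold. Of these 5, 0 passed by edgeR or by DESeq2, beside 5.30% and 5.40% of all tested genes. An unadjusted p below 0.05 by edgeR was found for 0, beside 18.3% of all tested genes. Sets this small cannot show a lower share. Tkt, transketolase of the pentose phosphate pathway, had 381, 372 and 374 CPM in si-hnrnpa2b1, against 399.8, 371 and 396 CPM in NC libraries (log2 -0.05 ± 0.04, edgeR adjusted p = 0.62). Taldo1, transaldolase of the same pathway, had 103 ± 3.69 and 105 ± 8.13 CPM (edgeR adjusted p = 0.81). Hmox1, the inducible enzyme that opens the haem ring and a textbook NRF2 target, had 39.4, 41.5 and 40.4 CPM in si-hnrnpa2b1, against 36.8, 39.1 and 34.7 CPM in NC libraries. The groups were separate by a narrow margin (log2 0.14 ± 0.07, 95% interval -0.02 to 0.29, edgeR adjusted p = 0.34). Fth1, the ferritin heavy chain that oxidises iron for storage, had 929.6, 941 and 959 CPM in si-hnrnpa2b1, against 1034, 969 and 977 CPM in NC libraries, without overlap and without passing (log2 -0.07 ± 0.04, edgeR adjusted p = 0.39).

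The ferritin light chain was spread over several rows. Ftl1 had 127, 139.6 and 131 CPM in si-hnrnpa2b1, against 140.2, 118 and 127 CPM in NC libraries (log2 0.04 ± 0.06, edgeR adjusted p = 0.81), but held only 21.3% of the counts of the 9 rows described as ferritin light chains. The row LOC100360087 on chromosome 5 held 27200 counts against 11326 for Ftl1. Added up, the 9 rows had 608 ± 12.8 CPM in si-hnrnpa2b1 and 621 ± 31.2 CPM in NC libraries (log2 -0.03 ± 0.05, edgeR adjusted p = 0.80), so the sign turned with the sum and neither value passed. No source used here says how reads of near-identical copies were assigned.

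The regulators Nfe2l2, Keap1 and Mafg did not pass, nor did Nqo1 and Osgin1, which were grouped with them. Thus 0 of these 5 genes passed by edgeR or by DESeq2, beside 5.30% and 5.40% of all tested genes. By edgeR 0 had an unadjusted p below 0.05, beside 18.3% of all tested genes. So few genes cannot show a lower share. Nfe2l2 (ENSRNOG00000001548, chromosome 3, 62497571 to 62524996) had 186, 196 and 194 CPM in si-hnrnpa2b1, against 197, 208 and 202 CPM in NC libraries. Its groups were separate by a small step (log2 -0.08 ± 0.05, 95% interval -0.17 to 0.02, edgeR adjusted p = 0.39). Keap1 (ENSRNOG00000020878, chromosome 8, 22250518 to 22259779) had 27.4, 23.0 and 27.1 CPM in si-hnrnpa2b1, against 27.7, 25.8 and 27.3 CPM in NC libraries, with overlap (log2 -0.06 ± 0.09, edgeR adjusted p = 0.80). Mafg, the small MAF partner of NRF2, had 40.7 ± 3.05 and 42.8 ± 5.72 CPM (edgeR adjusted p = 0.76). Nqo1, the quinone reductase most often used as a readout of NRF2, had 64.7, 69.0 and 63.5 CPM in si-hnrnpa2b1, against 64.5, 62.7 and 58.9 CPM in NC libraries, with overlap (log2 0.08 ± 0.06, edgeR adjusted p = 0.53). Osgin1, an oxidative stress responsive growth inhibitor, was the lowest of the group, at 5.96 ± 0.968 and 6.26 ± 1.05 CPM (edgeR adjusted p = 0.90). The amount and the location of the NRF2 protein were not measured.

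Levels are comparable between genes only per gene length, and on the FPKM scale the members covered a wide range. By row, Fth1 stood alone at the top, with 1134 ± 25.4 FPKM in si-hnrnpa2b1 and 1198 ± 52.5 FPKM in NC libraries. Ftl1 followed with 239 ± 13.3 and 233 ± 21.9 FPKM, but its row held only 21.3% of the ferritin light chain counts. The level of the light chain as a whole is therefore not ranked here. In si-hnrnpa2b1 libraries Gstp1 (201 ± 5.43 FPKM) came next and then Tkt, Sod2 and Prdx6 (181 ± 1.09, 169.9 ± 3.38 and 169.8 ± 2.48 FPKM), of which Sod2 and Prdx6 did not differ beyond their spread. In NC libraries Sod2 was next after the ferritins, at 227 ± 12.8 FPKM, within the spread of Ftl1 and ahead of Gstp1 at 206 ± 10.97 FPKM. Nfe2l2, at 82.9 ± 2.77 FPKM in si-hnrnpa2b1 and 87.7 ± 1.51 FPKM in NC libraries, was listed far above Keap1, at 8.16 ± 0.754 and 8.53 ± 0.407 FPKM. Gclc stood at 4.86, 5.37 and 4.76 times the FPKM of its partner Gclm in si-hnrnpa2b1, against 5.05, 5.55 and 5.47 times in NC libraries. At the low end stood Osgin1 (1.69 and 1.78 FPKM), Txnrd2, Gsta1, Gsta4, Srxn1 and Keap1, each below 10 FPKM in both groups. The median coefficient of variation of these genes was 3.68% in si-hnrnpa2b1 and 5.79% in NC libraries, against 6.59% and 7.27% over all tested genes. These sets of genes were not matched for level, on which this spread depends.

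**Figure D4:**
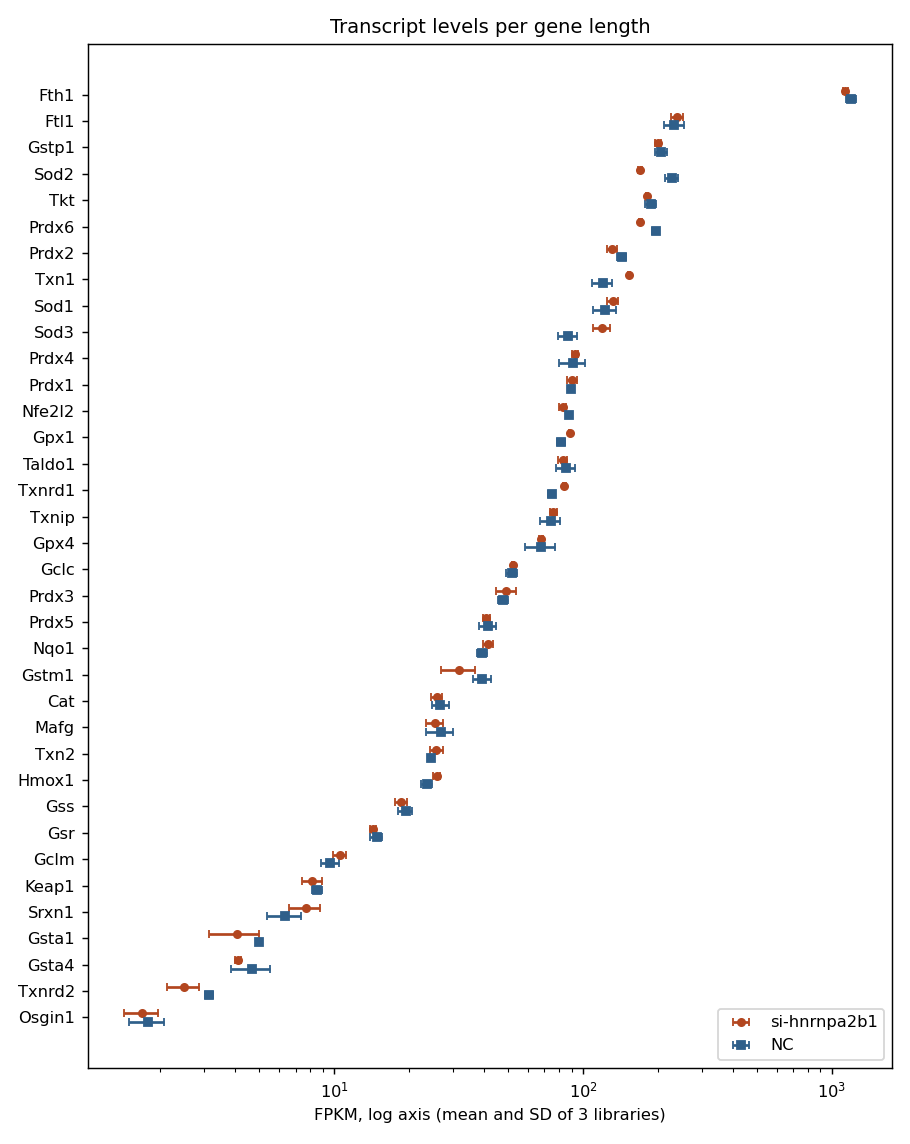
Deposited FPKM (x axis, log scale) of the 36 genes, ordered by their mean over all 6 libraries; circles are si-hnrnpa2b1 and squares NC, each the mean of 3 libraries with its SD. Fth1 lies far right at 1134 and 1198 FPKM and Osgin1 far left at 1.69 and 1.78 FPKM.

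Other genes of the same pathways were taken from a list of 131, of which 121 had a row and 98 passed the filter on low counts. Of the 98, 5 rose, 6 fell and 87 did not pass, 11.2% beside 5.30% of all tested genes. These shares were not tested against each other, and the list was chosen with earlier results of these data known. The median log2 fold change of the 98 was -0.013. Among the risers, Chac1, which degrades glutathione, had 22.1, 16.4 and 20.7 CPM in si-hnrnpa2b1, against 13.1, 13.2 and 10.2 CPM in NC libraries (log2 0.70 ± 0.13, edgeR adjusted p = 0.0051). Slc7a11, which imports cystine for glutathione synthesis, had 60.1, 70.4 and 67.8 CPM in si-hnrnpa2b1, against 45.6, 56.6 and 43.4 CPM in NC libraries (log2 0.45 ± 0.09, edgeR adjusted p = 0.0078). Sesn2, a sestrin that protects from oxidants and restrains growth signalling, had 124, 107 and 104 CPM in si-hnrnpa2b1, against 75.9, 87.4 and 71.8 CPM in NC libraries (log2 0.51 ± 0.08, edgeR adjusted p = 0.00092). All 3 are also known targets of the stress factor ATF4. Pon2, an intracellular paraoxonase, and Idh2, the mitochondrial isocitrate dehydrogenase that makes NADPH, rose less, with log2 fold changes of 0.20 and 0.16 and adjusted p of 0.042 and 0.047 by edgeR.

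Among the genes of this list that fell were both BACH factors, which compete with NRF2 for its binding elements. Bach1, which haem displaces from DNA, had 67.9, 70.5 and 68.3 CPM in si-hnrnpa2b1, against 79.9, 100.2 and 80.6 CPM in NC libraries (log2 -0.33 ± 0.08, edgeR adjusted p = 0.020); without NC replicate 2, the highest, the adjusted p was 0.054 and the log2 fold change -0.22. Bach2, its relative known from lymphocytes, had 8.30, 9.29 and 8.96 CPM in si-hnrnpa2b1, against 12.1, 13.6 and 13.4 CPM in NC libraries (log2 -0.56 ± 0.12, edgeR adjusted p = 0.011). Cp, the ferroxidase ceruloplasmin, had 142, 146 and 139.9 CPM in si-hnrnpa2b1, against 177, 199 and 158 CPM in NC libraries (edgeR adjusted p = 0.010). Mgst1, a microsomal glutathione transferase, fell too (log2 -0.21 ± 0.04, edgeR adjusted p = 0.0068). Idh1, the cytosolic isocitrate dehydrogenase that makes NADPH, had 69.0, 70.4 and 69.2 CPM in si-hnrnpa2b1, against 83.2, 82.0 and 84.0 CPM in NC libraries (log2 -0.26 ± 0.06, edgeR adjusted p = 0.012), opposite in sign to Idh2. The 6th, Ucp2, an inner mitochondrial membrane carrier named here after its values were seen, also fell (log2 -0.18 ± 0.04, edgeR adjusted p = 0.024). Several of these calls were lost when 1 library was left out, in fits that also called a smaller share of all tested genes. The cause was not tested. Without si-hnrnpa2b1 replicate 1, Bach1, Bach2, Idh2 and Pon2 were lost. Leaving out replicate 2 of that group lost Bach1, Slc7a11, Mgst1, Idh2 and Ucp2, and leaving out its replicate 3 lost Bach1, Idh1, Cp, Idh2, Pon2 and Ucp2. In the NC group, leaving out replicate 1 lost Pon2 and Ucp2, replicate 2 lost Bach1 and Idh2, and replicate 3 lost Idh2, Pon2 and Ucp2. The adjusted p of the lost calls ran up to 0.16, and Sesn2 and Chac1 passed without any 1 of the 6 libraries.

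**Figure D5:**
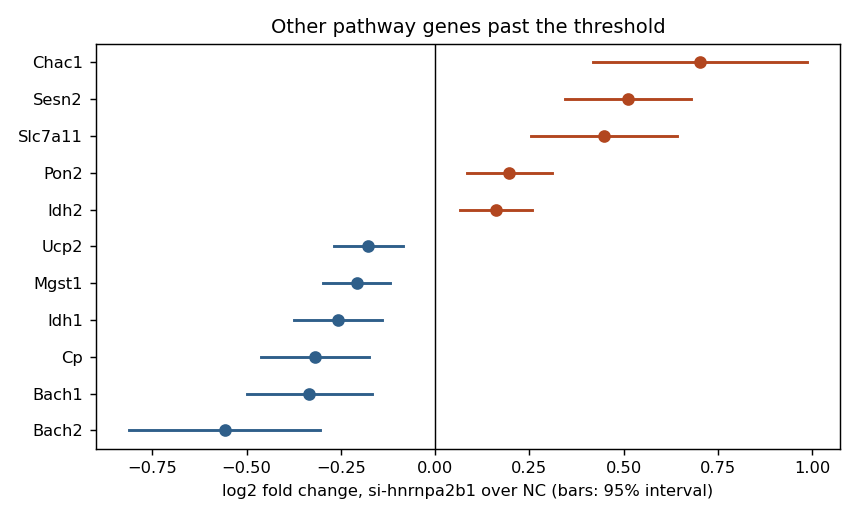
Log2 fold change of si-hnrnpa2b1 over NC (x axis) for the 11 further pathway genes that passed the test; points are edgeR estimates from 3 libraries per group and bars their 95% intervals. Chac1, Sesn2 and Slc7a11 lie farthest right and Bach2 farthest left.

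Promoter sequences were read to show which of these genes hold the core of an antioxidant response element near their start. The windows, from RefSeq on assembly GRCr8, run from 250 bases before to 50 after the start; 31 of the 37 genes were matched by symbol or synonym, and Txnip, Gsr, Hmox1, Fth1, Sod3 and Prdx6 were not. The core searched was TGACNNNGC on both strands. It overlaps the AP-1 element TGACTCA, which the form TGACTCAGC contains. Of the 31 windows 8 held it (25.8%), beside 12.2% of 27457 windows of the same length in the table and 24.3% of 107 windows of the wider list. Of those 8 genes, 1 fell (Sod2) and 7 did not pass (Nfe2l2, Gclm, Gsta1, Gstp1, Prdx1, Prdx4 and Prdx5). A match is a string of letters and not a binding site, and its absence from a window says nothing of sites farther away. The 8 matches are shown so that their cores can be compared, 5′ to 3′ on the strand of the gene with the core in capitals; a core on the opposite strand begins with GC.
Gclm: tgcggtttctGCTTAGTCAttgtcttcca
Gstp1: tccactgtgtTGACTCAGCatccggggcg
Prdx1: cagggaaagcGCTGAGTCAtaccccgccg
Prdx5: cctcctgtggGCAGAGTCAtctgcgggtg
Prdx4: tttcgtgctcGCTTGGTCAtggaaacgtg
Gsta1: aactcaggcaTGACTTTGCatttttcttc
Nfe2l2: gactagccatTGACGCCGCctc
Sod2: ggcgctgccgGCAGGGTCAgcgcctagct

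The first base of the core, on the strand of the gene, lies 172 bases before the start in Gclm, 135 before it in Prdx1, 61 in Gstp1, 35 in Sod2 and 1 in Prdx5, and at positions 20, 31 and 39 of the transcript in Prdx4, Gsta1 and Nfe2l2. Those of Gstp1 and Prdx1 contain the AP-1 element. The Gclm and Gstp1 windows lie at chr2:213031953-213031981, plus strand, and chr1:210769748-210769776, minus strand.

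Of the 5 genes that changed, Txn1, Txnrd1 and Sod2 had an entry, and the 250 bases before their starts are shown because they changed in different directions. Only that of Sod2 holds the core, in capitals. Windows at any other start of the same gene were not searched, for Txnrd1 or for the remaining genes.
Txn1, chr5:77519686-77519935, minus strand: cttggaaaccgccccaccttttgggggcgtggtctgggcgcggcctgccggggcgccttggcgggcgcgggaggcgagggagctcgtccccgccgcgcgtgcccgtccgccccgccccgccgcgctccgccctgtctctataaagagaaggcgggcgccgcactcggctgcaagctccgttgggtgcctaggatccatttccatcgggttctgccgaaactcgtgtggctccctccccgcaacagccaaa
Txnrd1, chr7:22764852-22765101, minus strand: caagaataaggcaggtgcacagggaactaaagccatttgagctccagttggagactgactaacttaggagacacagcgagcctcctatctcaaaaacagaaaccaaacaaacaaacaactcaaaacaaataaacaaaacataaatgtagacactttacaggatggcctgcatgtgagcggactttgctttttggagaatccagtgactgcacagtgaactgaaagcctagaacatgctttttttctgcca
Sod2, chr1:50050169-50050418, minus strand: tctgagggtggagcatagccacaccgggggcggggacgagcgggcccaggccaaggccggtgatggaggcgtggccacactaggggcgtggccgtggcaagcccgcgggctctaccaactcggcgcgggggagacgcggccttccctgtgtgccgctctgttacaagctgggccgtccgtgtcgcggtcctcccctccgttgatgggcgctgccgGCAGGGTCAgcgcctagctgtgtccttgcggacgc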

How the data were processed

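Whole-number counts and FPKM per gene for 6 libraries were deposited by the authors, with Ensembl identifiers and Rnor_6.0 coordinates. Per the submitters' processing notes, the tools were HISAT2 2.0.4, StringTie 1.3.0 and edgeR, with no role stated; no source used here gives the counting program or strand setting. The FPKM deposited by the authors equal the count over a single gene length and the column total, to within 0.062%. Columns were assigned by sample title.

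The test was that of edgeR 4.0.16 (R 4.3.3), after filterByExpr (minimum count 10, minimum total 15; 12261 genes) and TMM scaling, by the two-sided quasi-likelihood F-test without covariates; the threshold was an adjusted p of 0.05. Intervals are 95% intervals from the fit's SE. The same fit was also run on counts simulated with its own dispersions, a check of the code that does not bear on the nature of the replicates. Within groups, libraries differed beyond sampling noise (chi-square per degree of freedom 2.91 to 6.00). Alternatives used DESeq2 1.42.0, limma 3.58.1 on log2 FPKM with pseudocounts of 1 and 0.1, other scalings and filters, summed rows, a replicate block and leaving out each library.

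The members and lists were chosen with earlier results of these data known. All members are named; values by library are given for those past the threshold, Nfe2l2, Keap1 and the 2 most abundant of each role, and further examples. Of the wider list, up to 5 genes in each direction are named by smallest adjusted p. An item withheld for evaluation is not reported here.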

Additional observations from a re-analysis of the deposited data

How the results depend on the processing

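Txn1, Sod2 and Sod3 passed under all 16 alternatives and Prdx6 under 15. Txnrd1 passed under 8. Of 577 values of single members under alternatives, 9 calls were lost (8 of Txnrd1 and 1 of Prdx6), 1 was gained (Gstm1) and 21 signs turned, none of them in a gene called in either fit. The count of changed genes over the whole table was 650, and 332 and 329 by limma on log2(FPKM + 1) and log2(FPKM + 0.1); it ran from 379 to 592 without single libraries. Members that rose numbered 2 to 3 and members that fell 1 to 3 without single libraries, against 3 and 2. In the same fits the median log2 fold change of the members ran from -0.028 to 0.024, and with library totals alone it was -0.029. Other pathway genes that rose numbered 5, and 2 by limma with either pseudocount. With library totals alone, or without the filter on low counts, 4 rose. Those that fell numbered 6, and 3 by limma with either pseudocount. The calls lost by limma were those of Slc7a11, Idh2, Pon2, Bach1, Bach2 and Cp (limma adjusted p = 0.06 to 0.1). Without single libraries the numbers that rose and fell ran from 3 to 5 and from 2 to 6. The cause was not tested, although each of those fits has 1 library fewer.

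Same-numbered libraries of the 2 groups correlated only weakly in their deviations from the group means (0.057, -0.0039 and 0.059 over 12261 genes). Pairs of unlike number ran from -0.0926 to 0.0411. Replicates 1 and 3 of each group correlated best with their own number, and replicate 2 of each group did not. With the replicate block 481 genes (3.92%) changed and the adjusted p of Txnrd1 was 0.055; the calls of the remaining members did not change. Among the other pathway genes the block ended the calls of Idh2, Pon2 and Ucp2 (adjusted p = 0.084, 0.093 and 0.056) and gained that of Me2 (0.037), named here after its values were seen, which left 4 that rose and 5 that fell.

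The signs that turned belonged to 14 members near 0, and all but 2 of the values came from leaving out single libraries. In such fits log2 fold changes ran from -0.09 to 0.089 for Gpx4, -0.104 to 0.019 for Keap1, -0.049 to 0.044 for Prdx5, -0.202 to 0.029 for Osgin1 and -0.019 to 0.041 for Prdx1. They ran from -0.018 to 0.106 for Prdx3, -0.062 to 4.9e-06 for Gstp1, -0.084 to 0.024 for Taldo1, -0.109 to 0.014 for Cat and -0.015 to 0.107 for Ftl1. For Gclc they ran from -0.002 to 0.052, for Mafg from -0.174 to 0.01, for Prdx4 from -0.052 to 0.103 and for Txnip from -0.036 to 0.11. With library totals alone Gpx4 was at -0.00025. Summing the ferritin light chain rows, a choice made after seeing the data, put Ftl1 at -0.03. Counting depth limits the genes under 10 CPM, where the intervals were widest.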
